A study of Mus musculus with 4 samples.

Results

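The Hox gene clusters of the mouse were examined in naive CD8 T cells by DNase-seq, which maps open chromatin by sequencing the ends of DNA that the nuclease DNase I releases. Hox genes were taken as the protein-coding GENCODE genes named Hoxa, Hoxb, Hoxc or Hoxd plus a number, which gave 39 genes among 21938 protein-coding genes on 21 chromosomes. They comprise 11 Hoxa, 10 Hoxb, 9 Hoxc and 9 Hoxd genes. Each cluster was also treated as a region: its span, from the first to the last coding Hox gene, and 100 kb on either side as flanks. All 4 libraries belong to 1 group of primary T cells, alpha-beta, CD8-positive, naive and resting, of virgin adult females of the hybrid strain B6CASTF1/J at an age of 2 months. No treatment and no engineered allele is given for any of them. The libraries are labelled biological replicates 1 to 4 but carry 1 shared donor identifier, so their spread may be partly technical, and the p-values below measure only that spread.

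Hox genes encode homeodomain transcription factors that specify position along the body axis. They lie in 4 clusters, each read from 1 strand for nearly all of its genes, and genes of the same number in different clusters (a paralog group) descend from 1 ancestral gene. The low-numbered end is called anterior and the end of group 13 posterior. In blood, genes such as Hoxa9, Hoxa10 and Hoxb4 are known from stem and progenitor cells and from leukaemia. Silent Hox clusters are classic targets of the Polycomb repressive complexes, while the Trithorax and MLL complexes keep them active. CTCF, a zinc-finger protein that stops loop extrusion by cohesin, is known to bind between Hox genes and to separate active from silent stretches in the embryo.

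Most Hox promoters had no DNase peak in these cells, yet peaks were denser inside the clusters than beside them. By the mean of 4 libraries, the highest site of each cluster lay between genes or at an alternative start of a gene or noncoding RNA. In Hoxa and Hoxb this order rests on replicate 4, where a missing peak counts as 0. Of the 39 genes, 10 had an open promoter, none of them in Hoxd. Sites near the boundary between paralog groups 9 and 8, or 9 and 7 in Hoxa, were among the 2 highest of each cluster by that mean, a pattern noticed after the heights were seen.

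The heights are in units that allow libraries to be set side by side. The unit of the deposited peak heights is not stated, so each was divided by its own library's median over the 17545 sites found in all 4 libraries, so a relative height of 1 is that of a middling reproducible site. Peaks of the 4 libraries that overlapped were merged, and a site found in at least 3 libraries is called a consensus site. There were 41228 of them, with a median relative height of 0.35. A library without a peak at a site counts as 0 there, which means that no peak was detected and not that the chromatin was closed. In bulk cells, a site open in fewer cells and a site less open in each cell cannot be told apart.

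The libraries differed in number of peaks, and this bears on every value of replicate 4. Replicates 1 to 4 had 69413, 70552, 51121 and 20647 peaks. If heights are read as scaled to depth, the smallest step between them corresponds to 109, 62.9, 91.5 and 24.3 M tags, a reading that no source states. By it, replicate 2 had fewer tags than replicate 3 but more peaks. The part of depth in the number of peaks was not tested. Of 8 T cell genes, 8, 8, 8 and 4 had a promoter peak, with summed relative heights of 7.98, 7.27, 6.29 and 3.44. Of 3 CD8 lineage genes, Cd8b1 (1.12, 1.43, 1.03 and 0.60) and Runx3 (1.95, 2.02, 1.49 and 1.40) had a peak in every library. Cd8a was at 0.50 and 0.37 in the first pair of libraries, without a peak in replicates 3 and 4. Of 6 B cell genes, 4, 3, 5 and 3 had a promoter peak, with summed relative heights of 1.05, 1.11, 2.71 and 3.12. The summed height of 5 stem and progenitor genes was 0.17, 0.21, 0.29 and 0.33, from Kit, Flt3 and Mecom. Flt3 had no peak in replicate 1 and stood at 0.063, 0.15 and 0.33 in the others, and Cd34 and Gata2 had no peak in any library. The sums were 1.22, 1.01, 1.26 and 0.61 for 5 myeloid genes and 2.38, 2.32, 2.502 and 1.25 for 5 stromal and endothelial genes. The part of chromatin of any of these other cell types in the Hox values was not tested. Results are therefore also given for replicates 1 and 2 alone.

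Sequences of high non-exonic sites are shown first, with letters that CTCF is known to prefer marked. The longer consensus used for this was added after the sequences had been seen. Of the 3 highest Hoxc sites, 1 without a match to it is left out. How often the letters recur in the printed set is therefore partly a result of the choice, and counts over all sites are given further below. Each is the central 100 bases of a consensus site on the plus strand of GRCm38 (mm10), the strand from which the Hoxb, Hoxc and Hoxd genes are read, from the RefSeq copy of the genome. Capitals mark a match to a longer CTCF consensus of 14 letters with at most 2 mismatches or, in the Hoxc site between groups 9 and 8, the letters AGGTGGC.
Hoxb site between Hoxb9 and Hoxb8, chr11:96278911-96279010: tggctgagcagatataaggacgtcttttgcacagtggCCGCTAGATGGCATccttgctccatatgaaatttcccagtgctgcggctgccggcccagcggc
Hoxb site in an intron of Hoxb6, chr11:96294661-96294760: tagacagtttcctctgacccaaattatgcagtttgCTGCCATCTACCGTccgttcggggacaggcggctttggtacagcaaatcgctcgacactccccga
Hoxc site between Hoxc9 and Hoxc8, chr15:102987561-102987660: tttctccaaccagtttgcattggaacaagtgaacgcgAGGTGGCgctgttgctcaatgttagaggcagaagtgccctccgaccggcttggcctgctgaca
Hoxd site between Hoxd9 and Hoxd8, chr2:74702351-74702450: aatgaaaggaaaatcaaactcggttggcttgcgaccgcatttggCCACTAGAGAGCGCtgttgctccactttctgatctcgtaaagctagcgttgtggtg

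At sites that overlap an exon, only the 30 bases around the match are shown, on the strand of the match. They include the highest sites of Hoxa and Hoxd.
Hoxa site between Hoxa9 and Hoxa7, chr6:52221799-52221828, minus strand: agaaaattCCAGGAGATGGCAGtgtggctc
Hoxa site between Hoxa11 and Hoxa10, chr6:52240531-52240560, minus strand: cgcagccgCCACGAGATGGCGCactcccga
Hoxd site between Hoxd8 and Hoxd4, chr2:74715913-74715942, plus strand: agctttgtCCAGGAGGAGGCGCtgtaggac
Hoxb site at the start of Hoxb5, chr11:96303237-96303266, plus strand: gtcaatcgCCGGGAGGTGGCGCgctctgct
Hoxb site at the noncoding gene Gm53, chr11:96261743-96261772, minus strand: gcgaccgaCCTCTAGGCGGCGCcctggcgt
The Hoxd4, Hoxb5 and Gm53 sequences are the 3 that also hold the stricter form of the motif that was searched first, CC followed by any 3 letters and AGGNGGC.

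Promoters are described next. The promoter of a gene extended 1 kb to either side of each of its annotated starts. A consensus site overlapped the promoter of 10 of the 39 Hox genes (25.6%), beside 55.1% of all protein-coding genes. The gap was wider among CpG-rich promoters, which are usually open in most cell types: 24 Hox genes have one, and 5 of these 24 (20.8%) had a consensus site, beside 85.6% of CpG-rich coding genes. In single libraries 12, 13, 11 and 5 Hox promoters had a peak (30.8%, 33.3%, 28.2% and 12.8%), beside 58.3%, 58.4%, 56.7% and 46.2% of all coding genes. The Hox share was below that of all coding genes in each of the 4 libraries. With replicates 1 and 2 alone, 11 Hox promoters had a site in both, beside 56.4% of all coding genes. Where all 4 libraries were required the count was 6, beside 45.8% of coding genes, and with a promoter window of 2.5 kb it was 16, beside 57.7%. It was 6 without replicate 1, without replicate 2 or without replicate 3, beside 45.9%, 45.9% and 45.8% of coding genes. Each of these counts then required a peak in replicate 4, the library with the fewest peaks.

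**Figure D1:**
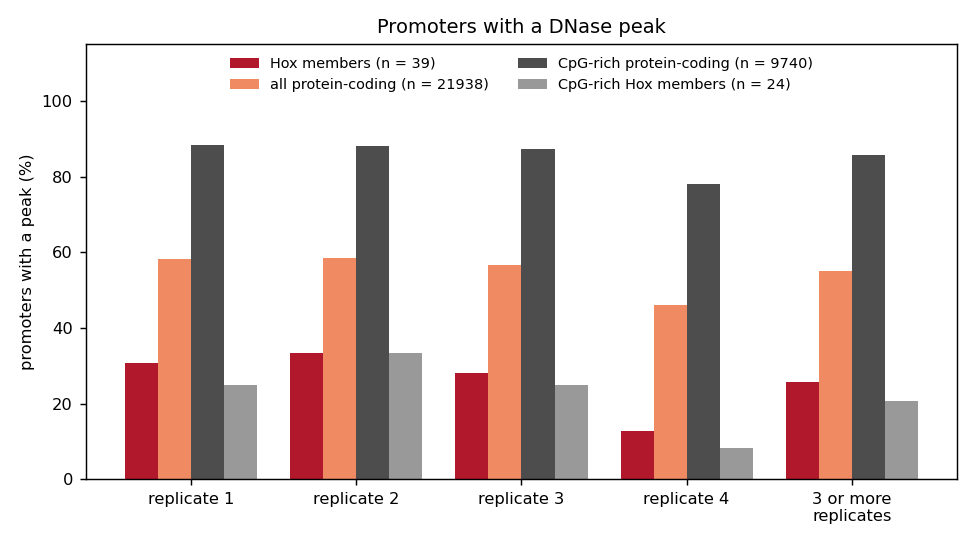
Share of promoters with a DNase peak (%), by library and for at least 3 libraries, for the 39 Hox genes, all protein-coding genes and the CpG-rich members of each. The bars of the 39 Hox genes are below those of all coding genes in every library, between 12.8% and 33.3%.

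At 25 Hox genes (64.1%) no library had a promoter peak, beside 39.2% of coding genes, and 5 (12.8%) had one in all 4 libraries, beside 45.8%. The called Hox promoters were also lower than those of other genes. Their median relative height was 0.62, beside 1.32 for all called coding promoters and 1.58 for the CpG-rich ones. The cut-rate intervals, a separate deposited list of stretches with more DNase cuts than background at a false discovery rate below 0.05, touched 30.8%, 33.3%, 30.8% and 15.4% of Hox promoters. Over all coding genes they touched 59.6%, 59.3%, 57.7% and 47% of promoters.

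In the Hoxa cluster (chr6:52155590-52260880), 4 of 11 genes had an open promoter. Hoxa7, a gene of the middle of the cluster, stood at 0.87, 0.89, 1.08 and 1.00 in replicates 1 to 4, with the highest mean of any Hox promoter, 0.96 ± 0.099 (SD, n = 4). This site lies 43 bp from an upstream start of Hoxa7, in a UTR, and a lower site at the other Hoxa7 starts had 0.36, 0.28, 0.46 and no peak. Hoxa10, known from progenitors and the endometrium, had 0.77, 0.77, 0.87 and 0.93, at a site 254 bp from its nearest annotated start. Both genes were open in every library, at starts other than the one nearest the start codon. Hoxa4 had 0.72, 0.78 and 0.62 and no peak in replicate 4. Hoxa9, a gene known for its part in progenitors and leukaemia, had no promoter peak in any library, nor had Hoxa2, Hoxa3, Hoxa5, Hoxa6, Hoxa11 and Hoxa13.

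In the Hoxb cluster (chr11:96194316-96368256), 2 of 10 genes had a consensus promoter site. Hoxb5 stood at 1.00, 0.93, 0.70 and 0.63 in replicates 1 to 4, at a site 85 bp from an annotated start. Hoxb4, known for expanding blood stem cells when overexpressed, had 0.32, 0.44 and 0.32 and no peak in replicate 4. Hoxb5 was thus higher than Hoxb4 in each library. Hoxb9 had peaks of 0.34, 0.31 and 0.23 in replicates 1 to 3, but at different places in its promoter, so no single site reached 3 libraries. Hoxb1 had a peak of 0.078 in replicate 1 only. Hoxb2, Hoxb3, Hoxb6, Hoxb7, Hoxb8 and Hoxb13 had none.

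In the Hoxc cluster (chr15:102921103-103036852), 4 of 9 genes were counted as open, from 3 sites. Hoxc10 and Hoxc5 share 1 site, whose relative height was 0.66, 0.73, 0.61 and 0.82 in replicates 1 to 4. It lies 195 bp upstream of the Hoxc10 start, and counts for Hoxc5 only through a distant upstream start. Near the other Hoxc5 start no site was found in more than 1 library. Hoxc6 had 0.51, 0.30 and 0.47 in replicates 1 to 3 at a site centred 1118 bp from its nearest start, at the edge of the promoter window. The peak of replicate 4 at that site, 0.81, lies just outside the window. Hoxc9 had 0.30, 0.18 and 0.33 and no peak in replicate 4. Hoxc4, Hoxc8, Hoxc11, Hoxc12 and Hoxc13 had none in any library.

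In the Hoxd cluster (chr2:74668310-74765142), no gene of 9 had a consensus promoter site. Hoxd8 and Hoxd9 had peaks of 0.13 and 0.10 in replicate 2 only. Hoxd1, Hoxd3, Hoxd4, Hoxd10, Hoxd11, Hoxd12 and Hoxd13 had none. When only the annotated start nearest the start codon was used, a choice made after the heights were seen, 7 of the 39 Hox genes had a consensus site, beside 45.6% of coding genes.

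**Figure D2:**
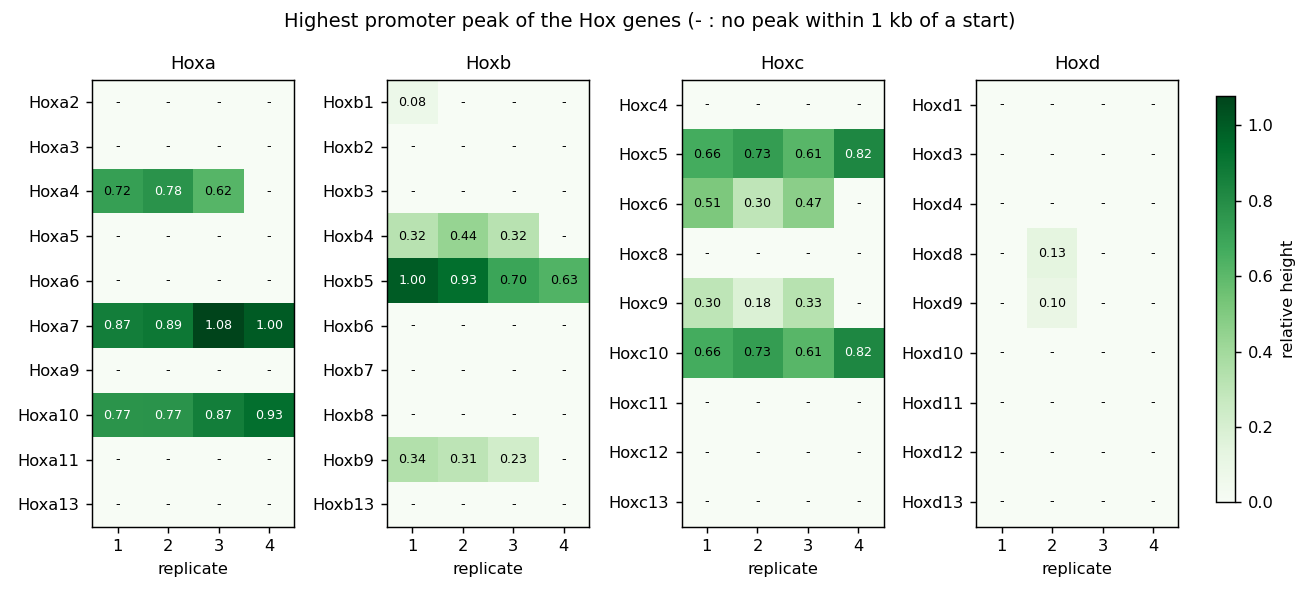
Relative height of the highest promoter peak of 38 of the Hox genes (rows) in each library (columns), by cluster, with darker green for higher peaks and a dash where no peak was found. Only Hoxa7, Hoxa10, Hoxb5, Hoxc5 and Hoxc10 have a value in all 4 libraries, and the Hoxd panel holds values in replicate 2 alone.

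Among the 5 genes open in all libraries, replicate 4 was the highest library for Hoxa10 and for the site shared by Hoxc5 and Hoxc10. It was the lowest for Hoxb5. Requiring a peak in every library leaves out promoters without a peak in replicate 4, such as those of Hoxa4, Hoxb4, Hoxb9 and Hoxc9. The order of replicate 4 among these 5 genes therefore says nothing on that library as a whole. Replicate 4 also had the highest summed B cell marker height, 3.12 against 1.05 in replicate 1, and its part in these heights was not tested. Without replicate 4, the 3 other libraries gave the same count of 10 Hox genes, beside 55% of coding genes.

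Whole clusters differed from their flanks. The spans together cover 491.815 kb and held 25 consensus sites, or 5.08 per 100 kb. The flanks cover 800 kb and held 12, or 1.5 per 100 kb, close to the genome value of 1.51. The spans were thus 3.39 times as dense as their flanks. This ratio rose to 6.78 with flanks of 50 kb and fell to 2.26 with flanks of 200 kb, and replicates 1 and 2 alone gave 2.62.

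In single libraries, spans had 7.93, 7.73, 5.69 and 2.24 peaks per 100 kb in replicates 1 to 4. Flanks had 3.00, 3.00, 1.88 and 0.625. The mean was 5.90 ± 2.64 in spans and 2.13 ± 1.13 in flanks (SD, n = 4), higher in spans in 4 of 4 libraries (exact sign-flip permutation test, two-sided, p = 0.13). With 4 libraries this is the smallest p that the test can give, so it cannot reach 0.05.

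**Figure D3:**
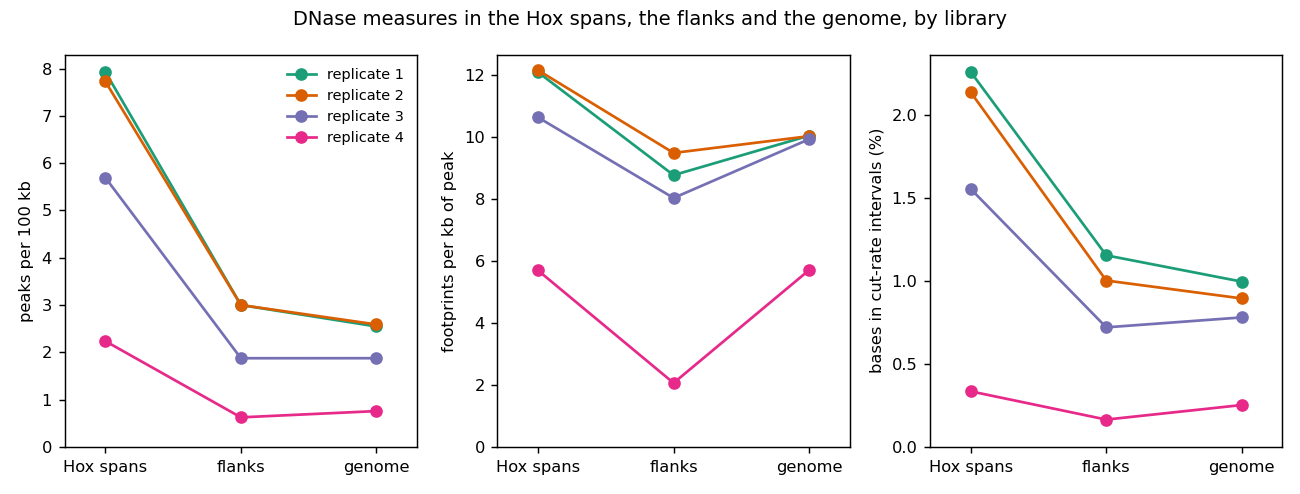
Peaks per 100 kb (left), footprints per kb of peak (middle) and the percent of bases in cut-rate intervals (right) in the 4 Hox spans together, their flanks and the genome, 1 line per library. In all 4 libraries the span value is above the flank value, and footprints per kb of peak fall lower in the flanks than in the genome.

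The excess over the flanks was seen in each cluster but differed in size. Hoxa spans had 5.70 ± 2.57 peaks per 100 kb and their flanks 1.00 ± 0.91. Hoxb had 7.04 ± 4.02 and 4.50 ± 2.61. The Hoxb flanks were the richest in peaks of the 4 clusters. The anterior Hoxb flank, on the Skap1 side, alone had 9, 9, 6 and 2 peaks per 100 kb in replicates 1 to 4. The Hoxb span had 10.9, 9.20, 6.32 and 1.72, so it was below that flank in replicate 4. Consensus sites per 100 kb were 6 in that flank and 5.75 in the span, and 2 in the posterior Hoxb flank. Hoxc had 4.54 ± 1.48 against 0.50 ± 0.41, and Hoxd 5.68 ± 2.73 against 2.5 ± 0.71 (SD, n = 4 in each). The ratios of these means were 5.70, 1.57, 9.07 and 2.27, and each cluster gave p = 0.13 by the exact sign-flip permutation test and 0.13 after Benjamini-Hochberg adjustment over 4 clusters, higher in spans in 4 of 4 libraries. Consensus sites numbered 7, 10, 4 and 4 in the Hoxa, Hoxb, Hoxc and Hoxd spans and 1, 8, 1 and 2 in their flanks. Among 27247 windows of 100 kb over the genome, 6.43%, 8.94%, 16.9% and 12.3% held at least as many consensus sites per length, so none of the clusters was at the extreme of the genome.

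The clusters did not separate from each other at this number of libraries. The 6 pairs had differences in peaks per 100 kb between 0.019 (Hoxa minus Hoxd, SD 1.90) and 2.51 (Hoxb minus Hoxc, SD 2.86) in size. None passed the exact sign-flip permutation test, with adjusted p from 0.75 to 1. The pair Hoxb and Hoxc, the furthest apart, kept its sign in 3 of 4 libraries. Differences of this size cannot be told from the spread between libraries here.

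The sites were spread unevenly within the clusters. In Hoxb the most anterior consensus site lies 124 kb from the posterior end of a span of 174 kb, at Hoxb4, so the stretch over Hoxb3, Hoxb2 and Hoxb1 held none. In Hoxc the 4 sites lie between 45.5 and 78.3 kb of a span of 116 kb, from the Hoxc10 promoter to Hoxc6, and the stretch over Hoxc11, Hoxc12 and Hoxc13 held none. Sites were closest in Hoxb, with a median gap of 8.54 kb, and furthest apart in Hoxd, with 29.2 kb. Of all 49 merged sites in the spans, 18 were found in 1 library only and 11 in all 4. This 51% share of consensus sites among merged sites was near the 47.4% of the genome.

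**Figure D4:**
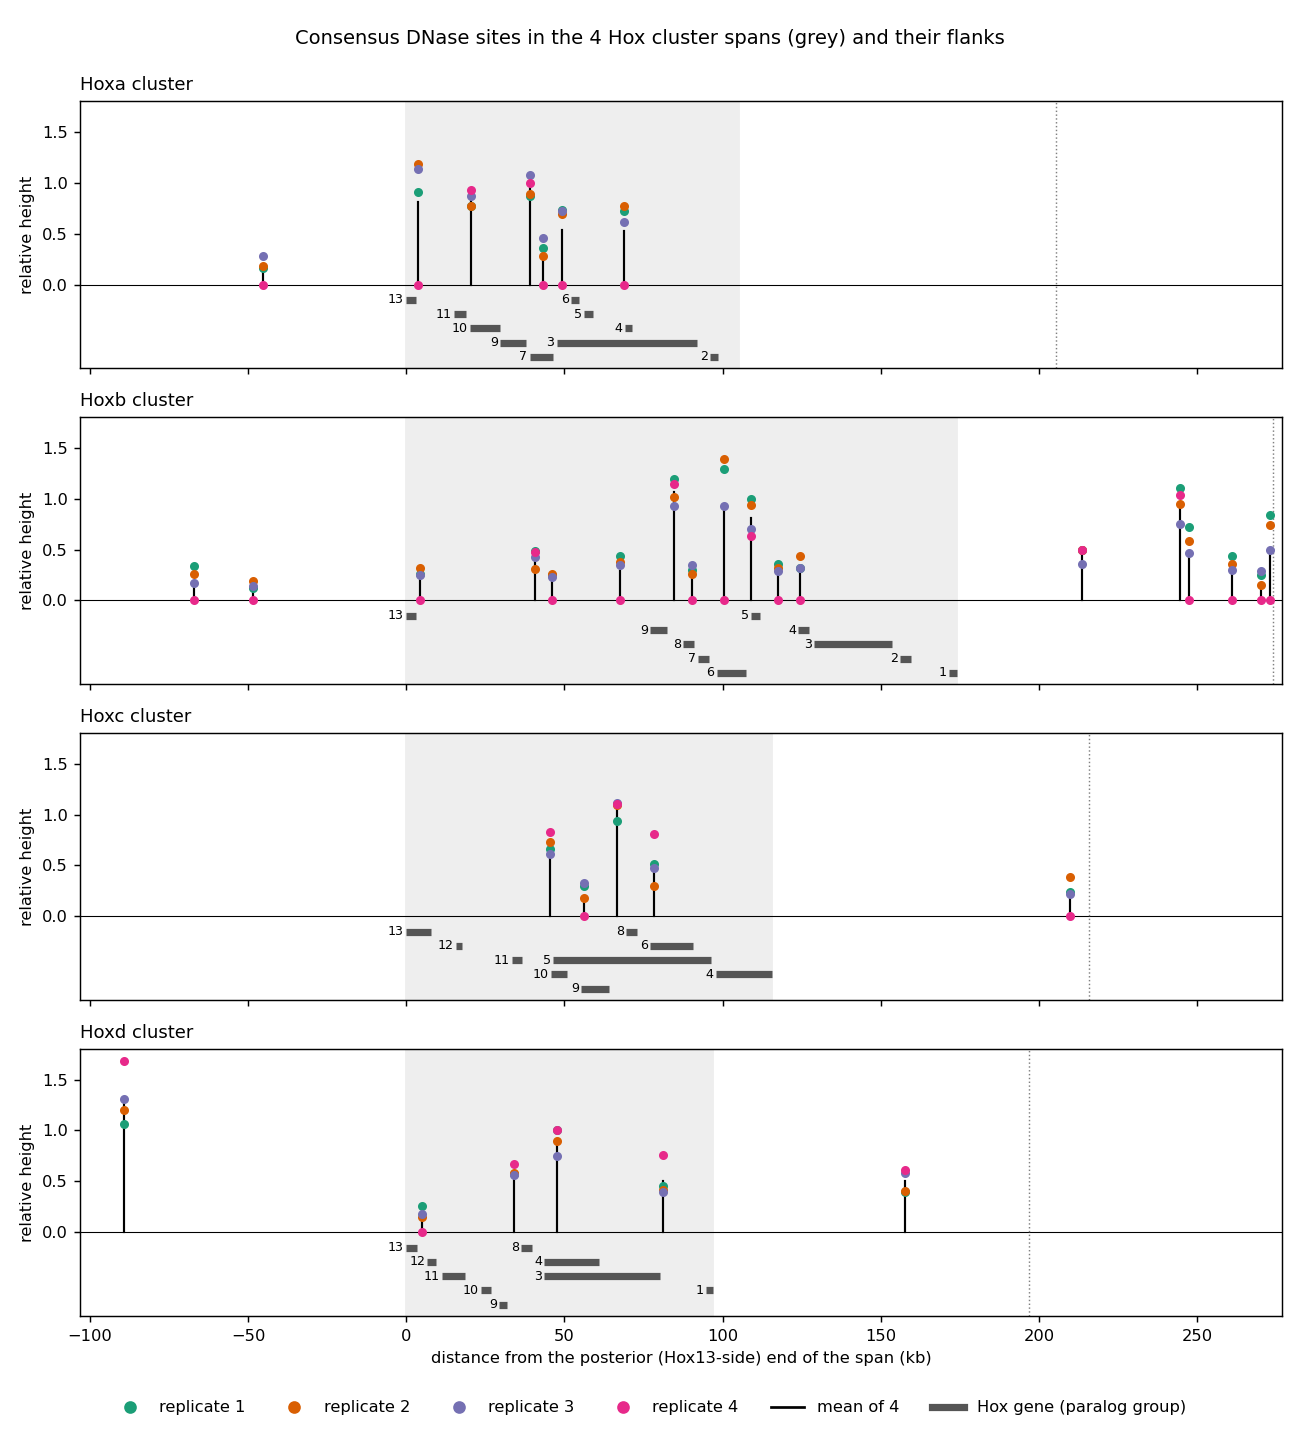
Relative height (vertical) of the consensus sites against its distance in kb from the posterior, Hox13-side end of its cluster (horizontal), with 1 colour per library and a black line to the mean of 4. Spans are grey, dotted lines mark the end of the anterior flank, and bars below each panel are Hox genes with their paralog group. Sites are frequent in the grey spans, and the 3 highest of Hoxb lie between 84.6 and 109 kb.

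Inside the clusters, median heights at promoters and away from them were close by the mean of 4 libraries but less so in single libraries. The 10 consensus sites within 1 kb of a Hox start had a median relative height of 0.53 by that mean, and the other 15 had 0.51. In replicates 1 to 4 the medians were 0.59, 0.59, 0.54 and 0.32 near a Hox start and 0.48, 0.42, 0.43 and 0 elsewhere. By the mean of 4 libraries, the flanking sites had 0.36 and all consensus sites 0.35. Of the span sites, 40% lay near a coding start, beside 42.1% of all consensus sites. By annotation, 8 of the 25 lay between genes, 8 in introns, 4 in UTRs, 4 in exons of noncoding genes and 1 in an intron of a noncoding gene. The median height depends on how many libraries a site must have. Over span sites found in all 4 libraries it was 0.81, where all such sites of the genome have a median of 1 in each library by the choice of unit. Without replicate 4 it was 1.03. The unit then changes, and all consensus sites have a median of 1 in each remaining library, so neither value compares with 0.35.

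The highest site of each cluster, by the mean of 4 libraries with 0 where no peak was found, is given with its value in every library. In Hoxb it lies between Hoxb9 and Hoxb8 (chr11:96278861-96279060), 2944 bp from the Hoxb8 start, with relative heights of 1.19, 1.01, 0.93 and 1.14. In Hoxc it lies between Hoxc9 and Hoxc8 (chr15:102987521-102987700), 2996 bp from the Hoxc8 start and in an intron of the long Hoxc5 transcript, with 0.94, 1.09, 1.12 and 1.11. These 2 sites have the same neighbours in paralogous clusters, and their sequences stand above. In Hoxa the highest site (chr6:52221701-52221920) is the one at the upstream Hoxa7 start, between Hoxa9 and Hoxa7, already given; the cluster has no Hoxa8. In Hoxd the site between Hoxd9 and Hoxd8 (chr2:74702301-74702500) had 0.58, 0.58, 0.57 and 0.67 and was second in its cluster. The highest in Hoxd (chr2:74715851-74716040) had 1.00, 0.89, 0.75 and 1.00. It lies 50 bp from the start of the antisense RNA Hoxd3os1, in an intron annotated for Hoxd3 and Hoxd4. Its place is between Hoxd8 and the Hoxd4 start nearest the start codon.

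Further sites were among the 3 highest of their cluster by the same mean. In Hoxa, a site between Hoxa13 and Hoxa11 (chr6:52257041-52257240) had 0.91, 1.18 and 1.14 and no peak in replicate 4. In replicates 1 to 3 it was higher than the site between Hoxa9 and Hoxa7, which ranks first only with replicate 4 counted. In Hoxb, the site in an intron of Hoxb6 (chr11:96294601-96294820) had 1.29, 1.39 and 0.93 and also no peak in replicate 4. In replicates 1 and 2 it was higher than the site between Hoxb9 and Hoxb8, and in replicate 3 both stood at 0.93. These 2 sites exceed most open Hox promoters in replicates 1 to 3, and their lack of a peak in replicate 4 lies outside the range of those 3 libraries. In Hoxd, the site in an exon of Haglr, a noncoding RNA gene on the Hoxd1 side of Hoxd3, had 0.46, 0.42, 0.39 and 0.75.

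The CTCF letters were counted in all sites, on both strands. The stricter form was the one chosen first. It occurred in 3 of the 25 span sites (12%, Wilson 95% interval 4.17% to 30%, which covers counting error only). Over all consensus sites it occurred in 14.7%, and in genome windows of 248 bp, the median site width, in 0.625%. By this measure the Hox sites did not hold the motif more often than other sites. The shorter letters AGGNGGC, which the stricter form contains, occurred in 14 of 25 span sites (56%), 42.1% of all consensus sites and 9.54% of windows. Another 2 searches were added after the sequences had been seen, with a longer consensus of 14 letters. With at most 2 mismatches it matched 15 of 25 span sites (60%), 7 of 12 flanking sites (58.3%), 45.7% of all consensus sites and 5.23% of windows. Among all consensus sites it matched 56.2% of those away from coding starts and 31.3% of those near one. With at most 1 mismatch it matched 3 of 25 span sites (12%), and its share over all consensus sites was not computed. The share of span sites thus ran from 12% to 60% with the letters chosen. The flanks were at about the same share as the spans for the longer form with at most 2 mismatches.

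The position of the matches was also recorded. All 15 matches in spans lay within 30 bp of the centre of their site, beside 66.9% of matches over all consensus sites. The span sites with a match had a median width of 200 bp, beside 248 bp for all consensus sites. A footprint is a short stretch protected from DNase cuts within open DNA. In replicates 1 to 4, the match was covered by a footprint at 15 of 15, 13 of 15, 12 of 15 and 3 of 8 span sites called there. Over all consensus sites with a match the shares were 78.2%, 78.1%, 67.6% and 27.2%. Relative to the Hox genes, 8 matches lay on the same strand and 7 on the opposite one. In Hoxb 5 of 8 were opposite, and the remaining clusters had 2 of 3 (Hoxa), 1 of 1 (Hoxc) and 2 of 3 (Hoxd) on the same strand. The median relative height was 0.71 at span sites with a match and 0.39 at the 10 without. The longer consensus was added after the sequences of the highest sites had been seen, so this split cannot test whether sites with a match are higher. For the same reason, the share within 30 bp cannot test whether matches are more central in span sites.

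Other letters were counted in the same way. GGGCGG, the letters bound by SP and KLF factors, occurred in 12 of 25 span sites (48%) and 34.8% of all sites. The AP-1 letters TGANTCA occurred in 3 (12%) and 7.35%. CCGGAAG (ETS), AAGATGGC (YY1) and TGACAGNT (MEIS) each occurred in 1 span site (4%), beside 9.67%, 3.49% and 5.11% of all sites. No span site held TGTGGTT (RUNX, 9.19% of all sites), CTTTGAT (TCF7/LEF1, 3.82%), the palindromic NRF1 letters (0.927%), TGATTNAT (PBX-HOX, 1.73%) or TAATTA (homeobox, 2.39%). A lack of matches says only that these letters are not in these windows.

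Over the 4 clusters together, footprints and cut rates gave the same order of span over flank as the peaks, with exceptions in single clusters. Footprints per kb of peak numbered 12.1, 12.2, 10.6 and 5.70 in spans and 8.78, 9.49, 8.04 and 2.06 in flanks. The means were 10.2 ± 3.05 and 7.09 ± 3.41 (SD, n = 4), higher in spans in 4 of 4 libraries (exact sign-flip permutation test, two-sided, p = 0.13). The genome values were 10.1, 10.04, 9.94 and 5.71, so flanks were below the genome in all 4 libraries, and spans above it in replicates 1 to 3 and level with it in replicate 4. The number of footprints is small in replicate 4, with 8 in span peaks and 2 in flank peaks. The ratio of the means, 1.43, became 2.23 with flanks of 50 kb, 1.13 with flanks of 200 kb and 3.11 when all footprints were counted per length of region. By cluster, the Hoxb span in replicate 3 had 9.94 footprints per kb of peak and its flanks had 10.2.

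The share of bases in cut-rate intervals was 2.26%, 2.14%, 1.55% and 0.335% in spans. It was 1.15%, 1.00%, 0.72% and 0.165% in flanks and 0.996%, 0.895%, 0.780% and 0.252% in the genome. The mean was 1.57% ± 0.88 in spans and 0.76% ± 0.44 in flanks (SD, n = 4), higher in spans in 4 of 4 libraries (exact sign-flip permutation test, two-sided, p = 0.13). The ratio of 2.07 became 4.69 with flanks of 50 kb and 1.47 with flanks of 200 kb. By cluster, the Hoxb span in replicate 4 had 0.199% and its flanks 0.2215%. The Hoxd span in replicate 3 had 1.471% and its flanks 1.486%. The anterior Hoxb flank alone had 3.36%, 2.96%, 2.00% and 0.443% in replicates 1 to 4, above the Hoxb span in each. That span had 2.57%, 2.43%, 1.41% and 0.199%, and the posterior Hoxb flank was below it in each library.

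Base composition differs between spans and flanks, and its part in these ratios was not tested. The GC share of the spans was 48.9% to 50%, and that of the flanks 39.6% to 47.5%. The observed over expected CpG ratio was 0.35 to 0.48 in spans and 0.18 to 0.29 in flanks. Soft-masked repeats covered 13.4% to 24.6% of spans and 20.6% to 34.1% of flanks.

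Coding genes that start in the flanks differed in height. Lnpk, which encodes the endoplasmic reticulum protein lunapark and lies in the posterior flank of Hoxd, beyond Evx2, had relative heights of 1.06, 1.21, 1.31 and 1.68, higher than any Hox promoter in each of the 4 libraries. Mtx2, a mitochondrial import gene on the other side of Hoxd, had 0.40, 0.41, 0.58 and 0.61. Skap1, an adaptor of T cell receptor signalling beside Hoxb1, had 0.25, 0.15, 0.29 and no peak in replicate 4. A higher consensus site lies 2500 bp from the Skap1 start, in its intron, with 0.84, 0.74 and 0.50 and no peak in replicate 4. The homeobox neighbour Evx1 and the tubulin-modifying Ttll6 had peaks in 2 libraries only, of at most 0.20. Evx2, which lies next to Hoxd13, and Calcoco2 had none, nor had Gm28308, 5730596B20Rik and Gm28230, coding gene models inside the spans.

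Noncoding genes within the spans were mostly without a peak. The share of all noncoding genes of the genome with a peak was not computed, so whether this differs from other regions cannot be told. Consensus sites stood, among others, at 9530018H14Rik, Gm27898, Gm53, Hoxd3os1 and Haglr. Among the Hox-embedded microRNAs, Mir10a had a peak within 1 kb in replicate 2 only, 0.078, and Mir10b, Mir196a-1, Mir196a-2 and Mir196b had none. The nearest consensus sites lay between 1.45 kb (Mir10a) and 10.2 kb (Mir10b) away. These microRNAs are known to target Hox transcripts.

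Genes that encode regulators of the Hox clusters mostly had an open promoter. All 32 listed Polycomb genes had a consensus promoter site, beside 55.1% of coding genes, with a median relative height of 1.76. Pcgf1, a subunit of a PRC1 variant, had 4.27, 4.58, 4.81 and 3.14, followed by Pcgf3 (mean 3.27 ± 0.48), the PRC2 accessory gene Phf1 (3.12 ± 0.19) and Pcgf5 (2.63 ± 0.81; SD, n = 4 in each). Of 16 Trithorax and MLL genes, 15 had one, with a median of 1.61. The H3K79 methyltransferase gene Dot1l had a mean of 3.17 ± 0.33, and Kdm6a, which encodes an H3K27 demethylase, 3.00 ± 0.28. Setd1a had 2.43 ± 0.26 and Kmt2c 2.23 ± 0.34 (SD, n = 4). The exception was Kdm6b, a second H3K27 demethylase gene, with 0.18 and 0.16 in replicates 1 and 2 and no peak in replicates 3 and 4. All 11 genes of the CTCF and cohesin list had a site, with a median of 1.92. The highest were Stag1 (3.59 ± 0.25), Smc3 (3.51 ± 0.45), Maz (3.47 ± 0.25) and Wapl (2.29 ± 0.085; SD, n = 4). Maz was part of this list but encodes neither CTCF nor a cohesin subunit. For comparison, the median over all 21938 coding promoters was 0.22, with 0 for promoters without a peak, and that over the 39 Hox promoters was 0. Over coding promoters with a consensus site alone it was 1.32, and over the CpG-rich ones 1.58. The counts in these lists stand beside 55.1% of all coding genes and 85.6% of CpG-rich coding genes with a consensus site.

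The HOX cofactors, TALE homeodomain proteins that bind DNA together with HOX proteins, were mixed. A consensus site was found at 7 of 9, beside 55.1% of coding genes, and the list's median height was 0.30. Pknox1 had 3.43, 4.78, 2.81 and 3.60, and Pbx3 had 2.19, 2.04, 2.21 and 2.44. Pbx4 (mean 1.47 ± 0.19) and Pbx2 (0.52 ± 0.14; SD, n = 4) were lower. Meis1, a partner of Hoxa9 in progenitors, had 0.14 and 0.18 in replicates 2 and 3 only, and Meis2 had no peak. Of 15 ParaHox and HOX-like homeobox genes, which include the CDX genes that activate Hox clusters in the embryo, 13 had no promoter peak in any library, Cdx1 and Cdx2 among them, beside 39.2% of coding genes without one. Gsx1 alone had a consensus site, with 0.20, 0.15 and 0.18 and no peak in replicate 4. These lists were described by their counts and were not tested against other genes.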

How the data were processed

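DNase-seq of 4 libraries of 1 group was used: per library a longer and a shorter peak list, footprints and cut-rate intervals, on mm10 per the labels. The deposited peak height is a signal whose scale no source states. Low heights fall within 0.05 of whole multiples of 1 step per library, which was read, as an assumption, as scaling to depth. The deposited footprint and cut-rate values are a p-value or q-value: 0.01 in every footprint entry, and below 0.05 in every cut-rate interval. Each list was made from the filtered alignment of that library, as the deposited text states. The aligner and the peak caller were not given in the sources used here, and no read counts per site were used. No counting interval is therefore given for a height. The cells are from a strain cross, and alleles were not examined: printed letters are the reference.

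The longer lists were merged at an overlap of at least 1 bp, with annotation from GENCODE M21 and sequence from RefSeq GRCm38.p6. CpG-rich meant an observed over expected ratio of at least 0.6 and at least 50% GC within 500 bp of the 5' end. Spans and flanks, and pairs of clusters, were compared with an exact two-sided sign-flip permutation test over the 4 libraries, with Benjamini-Hochberg adjustment; Hox counts were described beside the same counts over all genes. The members and the lists were chosen with earlier results of these data known. Named were all Hox genes, flanking coding genes, the 3 highest sites per cluster, and of each list at most 4 genes open in all 4 libraries, by mean height, and at most 2 open in none, by alphabet; Kdm6b, Gsx1, Meis1, the third Hoxc site's omission from the sequences, and the 30-base sequences at exons were decided after the values were seen. Alternatives were the shorter lists, other numbers of libraries, leaving out each replicate, equal numbers of peaks, other promoter windows and starts, flanks of 50 and 200 kb, stricter cut-rate limits and other motif letters. A Hox gene and its site, a marker gene and a site sequence are not reported here. The steps used samtools 1.23.1, matplotlib 3.10.9, pandas 2.3.3, scipy 1.17.1, numpy 2.4.6 and Python 3.11.15, and were tested on simulated data.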

Additional observations from a re-analysis of the deposited data

Results flagged for a closer look

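Of 21 sets of 4 library values examined, 3 had 1 library far from the other 3, where chance alone marks about 1 in 20. Replicate 4 had 1.90 peaks per 100 kb in the Hoxa span, against 6.65, 7.60 and 6.65 in replicates 1 to 3; it is also the library with the fewest peaks. At the Hoxc site between Hoxc9 and Hoxc8, replicate 1 had a relative height of 0.938 against 1.09, 1.12 and 1.11. At the Hoxd site between Hoxd9 and Hoxd8, replicate 4 had 0.667 against 0.576, 0.583 and 0.567. Both sites had a peak in every library.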

How the results depend on the processing

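The small number of peaks in replicate 4 and the absence of read counts per site limit every count that requires a peak in that library. The 10 Hox genes with an open promoter became 6 when all 4 libraries were required (45.8% of coding genes) and 16 with a window of 2.5 kb (57.7%), against 55.1% at first. They ranged from 6 to 10 when each replicate was left out, beside 45.8% to 55% of coding genes. The median height of span sites, 0.52, became 0.815 with all 4 libraries required, where such sites of the genome have a median of 1 in each library. It became 1.31 with replicates 1 and 2 only, and ranged from 0.757 to 1.03 when each replicate was left out. With any replicate left out, the reference set of sites, and so the unit, changes too. The motif share of 12% became 56% with the shorter letters and 60% with the longer consensus. The difference Hoxa minus Hoxd changed sign, to -0.126 without replicate 1 and -0.814 without replicate 3, and ranged up to 0.590; Hoxc minus Hoxd became 0.133 without replicate 2 and ranged down to -1.88. The cause of these changes was not tested. Spans stayed above flanks in all alternatives run: 2.26 to 6.78 times for consensus sites, 1.13 to 3.11 for footprints and 1.47 to 4.69 for cut-rate bases. Tests were paired within libraries; with 1 group no replicate block could be added.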
